A study of Homo sapiens with 36 samples.

Results

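The comparison set 2 K562 lines that carry an LMO2 degron against each other, here called degron line 1 and degron line 2 after the labels' LMO2 degron rep 1 and rep 2. They were chosen by those labels alone and hold 12 of the series' 36 libraries, 6 per line: 2 libraries, numbered bio rep 1 and 2, on each of days 0, 1 and 4. K562 is a human myeloid leukemia line that expresses many erythroid genes. In both degron lines day 0 was sampled without dTAGv1, a molecule that brings a tagged protein to an E3 ubiquitin ligase for breakdown, and days 1 and 4 were sampled in dTAGv1, which the labels give at 750 uM, a unit that could not be checked here. The lines without a degron, a parental K562 line and a line labelled LMO2 control, were sampled on the same days with and without the same agent and add 12 libraries to the fit. How the degron lines were derived, whether each is 1 clone and what the LMO2 control line carries are not given in the sources used here, and whether bio reps are separate cultures is not stated either, so the p-values measure the spread between these libraries.

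LMO2 is an adaptor that binds no DNA itself. In erythroid cells it joins TAL1, which binds E-box sequences with an E protein partner, to GATA1, which binds GATA sequences, and LDB1 dimers bring such complexes together. The complex is known for holding erythroid genes active, KLF1 among them, and lines made separately from K562, whose chromosomes are rearranged, can differ from each other before any treatment.

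The tests across all genes placed 6 genes apart in how far the degron lines changed by day 4, and the RefSeq promoters of 4 of them (GRCh38.p14, 250 bases before to 50 after the start of transcription) are shown because they head the results on the response. Capitals mark letters of the GATA box AGATAA or of the composite of CTG and GATA with 8 bases between them, each searched on both strands, and the motifs can overlap. KLF1, an erythroid transcription factor, lies on the minus strand at chr19:12887152-12887451. AQP10, a channel for water and glycerol, lies on the plus strand at chr1:154320843-154321142. PDE11A, a phosphodiesterase that breaks down cAMP and cGMP, has 4 starts in the table and the most upstream, on the minus strand at chr2:178108290-178108589, is shown. SLITRK6, a leucine-rich repeat membrane protein known from neurons and the inner ear, lies on the minus strand at chr13:85799370-85799669.
KLF1: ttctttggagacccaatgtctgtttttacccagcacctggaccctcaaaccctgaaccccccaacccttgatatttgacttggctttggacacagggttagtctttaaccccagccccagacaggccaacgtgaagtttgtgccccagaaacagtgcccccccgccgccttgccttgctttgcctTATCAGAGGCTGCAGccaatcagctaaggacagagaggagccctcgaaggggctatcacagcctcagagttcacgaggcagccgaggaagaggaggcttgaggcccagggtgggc
AQP10: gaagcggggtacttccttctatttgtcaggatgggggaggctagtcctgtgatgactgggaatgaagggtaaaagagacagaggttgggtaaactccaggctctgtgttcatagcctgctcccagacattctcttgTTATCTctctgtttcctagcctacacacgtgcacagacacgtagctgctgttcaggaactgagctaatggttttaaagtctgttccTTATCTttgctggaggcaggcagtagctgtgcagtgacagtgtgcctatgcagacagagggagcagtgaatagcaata
PDE11A: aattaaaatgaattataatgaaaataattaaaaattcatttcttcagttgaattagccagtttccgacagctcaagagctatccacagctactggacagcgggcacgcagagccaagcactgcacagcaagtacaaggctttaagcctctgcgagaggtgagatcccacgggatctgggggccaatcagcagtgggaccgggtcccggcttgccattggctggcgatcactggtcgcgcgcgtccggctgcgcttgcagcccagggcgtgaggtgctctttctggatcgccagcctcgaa
SLITRK6: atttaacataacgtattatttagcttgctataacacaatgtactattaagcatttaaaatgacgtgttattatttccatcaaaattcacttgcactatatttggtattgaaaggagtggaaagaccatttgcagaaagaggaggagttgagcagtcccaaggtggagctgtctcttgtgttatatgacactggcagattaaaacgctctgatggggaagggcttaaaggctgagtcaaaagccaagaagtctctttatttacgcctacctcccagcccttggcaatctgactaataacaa
The KLF1 window held 1 composite match, on the reverse strand from position -65 relative to the start. This pattern was found in 1.98% of 34943 promoters in the table and in 1.24% of the 12849 promoters of genes tested. The AQP10 window held 2 reverse GATA boxes, from positions -114 and -28. At least 1 was held by 10.4% of all promoters and 5.75% of those of genes tested. None of the 4 PDE11A windows, the SLITRK6 window and the window of TLX1, a homeobox factor, held either pattern, and no window was found for the long non-coding RNA LINC01033. The E-box CANNTG was common, with a match in 68.7% of all promoters and 60.8% of those of genes tested. These letter matches describe the windows and do not show binding.

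Depth was similar in both lines. Reads recovered from the FPKM of 36668 genes came to 19506917 to 21886635 per library in degron line 1 and 18038706 to 20271087 in degron line 2. These genes held 69.1% to 78.1% of the summed FPKM over the 24 libraries of the fit, so the totals fall short of full depth. The share of summed FPKM from mitochondrially encoded genes was higher in degron line 1 than in its matched library of degron line 2 in 6 of 6 pairs, at 21.8% to 27.2% against 19.5% to 23.3%. Because FPKM are shares of a library, a larger mitochondrial share lowers all other values, and its part in the results was not tested. Erythroid markers were present in both lines on day 0 (HBZ at a mean of 142 FPKM in degron line 1 and 97.3 in degron line 2, GATA1 at 131 and 116). PF4 and MS4A1, defining markers of megakaryocytes and B cells, were at 0 in all 12 libraries. Other megakaryocyte markers were low but not absent. ITGA2B stood at 0.642 to 2.04 FPKM in degron line 1 and 0.123 to 0.585 in degron line 2. GP1BA stood at 0.321 to 0.727 and 0.204 to 0.436, and the 3 megakaryocyte markers summed to 1.09 to 2.48 and 0.326 to 1.02. The 4 stromal markers summed to 0.448 to 1.91 FPKM in degron line 1 and 0.708 to 1.88 in degron line 2, and the 3 lymphoid markers to 1.84 to 2.95 and 1.04 to 2.24. Monocyte and granulocyte markers were not absent: LYZ stood at 12.3 to 40.5 FPKM in degron line 1, 10.4 to 57.3 in degron line 2 and 3.16 to 11.03 in the lines without a degron, and ITGAM at 19.4 to 68.9, 14.3 to 60.8 and 0.842 to 6.23 in the same order. MPO, of granulocytes, stayed at or under 0.14 FPKM in the degron lines, and CD14, of monocytes, at or under 0.33.

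LMO2 RNA itself did not separate the lines. Degron line 1 held 132 and 146 FPKM on day 0, 128 and 244 on day 1 and 155 and 271 on day 4, against 135 and 157, 147 and 229.8, and 234 and 265 in degron line 2. A degron acts on protein, so these values do not test how much LMO2 protein was lost in either line. The mean difference over days was -0.13 ± 0.16 on the log2(FPKM + 1) scale (SE, limma adjusted p = 0.569). TAL1 did not pass the test either (0.08 ± 0.15, adjusted p = 0.727). LDB1 was higher in degron line 1 by 0.33 ± 0.065 (adjusted p = 0.00285), with 90.6 and 74.0 FPKM on day 0, 52.4 and 51.9 on day 1 and 46.2 and 40.8 on day 4, against 73.2 and 70.1, 36.0 and 37.4, and 39.1 and 32.0 in degron line 2.

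The question of the response was whether both lines changed by the same amount once dTAGv1 was added. The difference in change was taken as the change from day 0 in degron line 1 minus that in degron line 2, with matched libraries as blocks, and the call was made with limma at an adjusted p (Benjamini-Hochberg, over the 15348 genes tested) under 0.05. On day 4 only 6 genes were called (0.0391% of those tested), 5 with the higher change in degron line 1 (0.0326%) and 1, SLITRK6, with the lower. Higher is meant by sign here, so a smaller fall also counts as the higher change. On day 1 AQP10 alone was called (0.00652%). At an unadjusted p under 0.05 there were 1192 genes on day 4 and 291 on day 1. Between the LMO2 control and parental lines the same limma contrast called 0 genes on either day, with 407 genes at an unadjusted p under 0.05 on day 4 and 568 on day 1. Without the block the degron lines gave 2 calls on day 4 and 0 on day 1.

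PDE11A had the largest difference in change to day 4 among the 6 called genes. Its level in degron line 1 was 1.63 and 2.13 FPKM on day 0, 3.48 and 4.44 on day 1 and 19.2 and 15.4 on day 4. In degron line 2 it was 0.237 and 0.241, 0.233 and 0.372, and 0.46 and 0.375 FPKM. The degron lines did not overlap on any day, and the 12 libraries of the lines without a degron, at 0.059 to 0.326 FPKM, overlapped degron line 2 but not degron line 1. PDE11A rose by day 4 in degron line 1 (2.67 ± 0.15, adjusted p = 6.97e-08), while its change was 0.19 ± 0.15 in degron line 2 (adjusted p = 0.374). The difference in change was 2.47 ± 0.19 (adjusted p = 8.85e-05) and was called in all 12 fits that left out 1 degron library, with adjusted p up to 0.00198. With a pseudocount of 0.1 it was not called (adjusted p = 0.150). PDE11A reached 1 FPKM only in degron line 1, so it passed the filter on low values only through the line where it was high. The level already differed on day 0, by 1.21 ± 0.13 (adjusted p = 0.000212). Recovered reads ran from 492 on day 0 to 5398 on day 4 in degron line 1 and from 65 to 118 over the 6 libraries of degron line 2.

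SLITRK6 went the other way. It was near 0 on day 0 in both lines, at 0.056 and 0.020 FPKM in degron line 1 (6 and 2 reads) and 0.165 and 0.164 in degron line 2 (16 and 17 reads). On day 4 it stood at 0.404 and 0.584 FPKM in degron line 1 and 2.79 and 3.46 in degron line 2. The lines without a degron held at most 2 reads of it in any library. It rose in both lines, by 0.52 ± 0.13 in degron line 1 (adjusted p = 0.00969) and by 1.82 ± 0.13 in degron line 2 (adjusted p = 4.15e-07). The difference in change of -1.30 ± 0.18 had an adjusted p of 0.0349. This call was lost in 11 of the 12 fits without 1 library, all but that without degron line 2 day 4 replicate 1, with adjusted p up to 0.294, and with the 12 libraries alone (adjusted p = 0.129) and a pseudocount of 0.1 (adjusted p = 0.775). SLITRK6 passed the filter on low values only through the day 4 libraries of degron line 2, the group where it was high.

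KLF1 fell in both lines and fell further in degron line 2. Degron line 1 held 133 and 109 FPKM on day 0, 48.5 and 45.9 on day 1 and 22.5 and 21.1 on day 4. Degron line 2 held 95.8 and 71.3, 16.1 and 14.7, and 5.11 and 4.30 FPKM. The ranges overlapped with the lines without a degron (83.9 to 149 FPKM) only on day 0, and degron line 1 lay above degron line 2 on every day. The fall to day 4 was 2.41 ± 0.20 on the log2 scale in degron line 1 and 3.88 ± 0.20 in degron line 2, both called. For day 4 the difference in change was 1.47 ± 0.18 (adjusted p = 0.0145), and for day 1 it was 1.02 ± 0.18, which was not called (adjusted p = 0.502). Leaving out any of 7 libraries of days 0 and 4, all but degron line 2 day 4 replicate 1, ended the day 4 call, with adjusted p up to 0.137, and so did leaving out the block (adjusted p = 0.349).

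AQP10 was the gene with the smallest adjusted p in both contrasts. It held 13.3 and 7.64 FPKM on day 0, 11.5 and 9.38 on day 1 and 5.598 and 3.66 on day 4 in degron line 1. In degron line 2 it held 20.3 and 13.2, 8.74 and 6.45, and 1.47 and 0.772 FPKM. Degron line 2 therefore began above its matched library of degron line 1 in both pairs and ended below it. The difference in change was 1.06 ± 0.12 on day 1 (adjusted p = 0.0126) and 2.05 ± 0.12 on day 4 (adjusted p = 7.04e-06). The day 1 call was lost in 7 of 12 fits without 1 library, those without either day 0 library of either line, either day 1 library of degron line 1 or degron line 2 day 1 replicate 2, with adjusted p up to 0.221. The day 4 call held in all 12, and both were lost without the block (adjusted p = 0.542 for day 4). The day 1 call was also lost with 1 additive block over the days, with the 12 libraries alone, with a pseudocount of 0.1 and after quantile normalization, with adjusted p of 0.0588 to 0.506. The lines without a degron held 2.43 to 7.19 FPKM.

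LINC01033 and TLX1 were the other called genes. LINC01033 held 17.9 and 11.1 FPKM on day 0 and 13.97 and 7.96 on day 4 in degron line 1, against 20.3 and 13.2 and then 6.04 and 3.51 in degron line 2. Its difference in change was 1.24 ± 0.16 (adjusted p = 0.0155), and the same 7 libraries as for KLF1 each ended the call when left out, as did leaving out the block (adjusted p = 1) or using 1 additive block (adjusted p = 0.0689). TLX1 held 7.96 and 9.60 FPKM on day 0, 17.0 and 14.96 on day 1 and 11.3 and 11.6 on day 4 in degron line 1, against 4.69 and 5.18, 8.64 and 7.15, and 3.57 and 3.64 in degron line 2. Its 2 lines did not overlap on any day. The lines without a degron held 9.14 to 12.7 FPKM, and every library of degron line 2 lay below that range. Degron line 1 lay above it on day 1 and within it on day 4, with 7.96 FPKM below it and 9.60 within it on day 0. The difference in change was 0.72 ± 0.11 (adjusted p = 0.0426), and 11 of the 12 fits without 1 library lost it, all but that without degron line 2 day 4 replicate 1, with adjusted p up to 0.321. It was also lost without the block, with an additive block, with the 12 libraries alone, after trimmed-mean rescaling and without limma's trend and robust settings, with adjusted p of 0.0511 to 0.719.

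**Figure D1:**
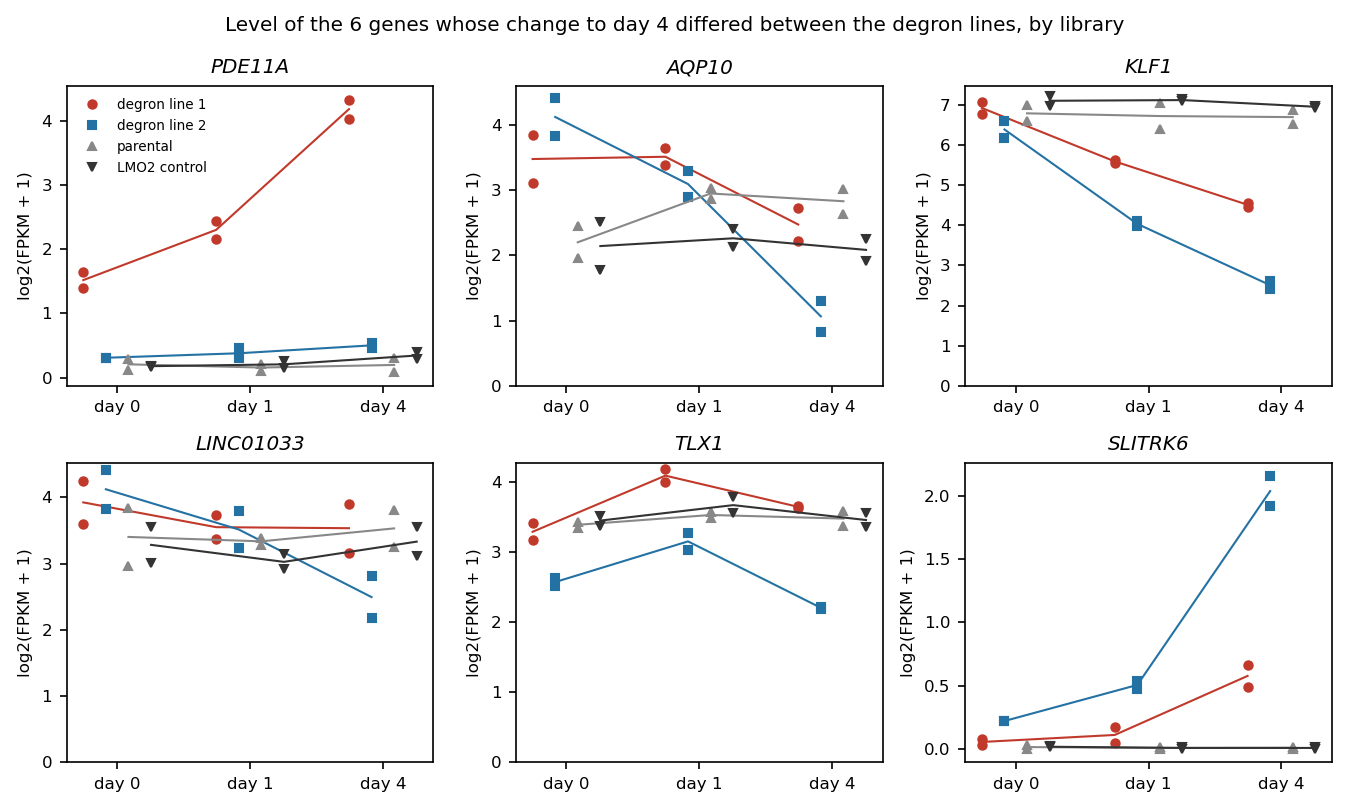
Level on the log2(FPKM + 1) scale by day for the 6 genes whose difference in change was called on day 4, with 1 point per library, lines through the means, and degron line 1, degron line 2, parental and LMO2 control from left to right. PDE11A climbs in degron line 1 alone, SLITRK6 climbs further in degron line 2, and KLF1, AQP10, LINC01033 and TLX1 end lower in degron line 2.

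The genes whose profile over the 12 libraries was most like that of PDE11A included AL391152.1, LINC02458, HNMT and DDR2, with Pearson correlations of 0.991, 0.981, 0.977 and 0.974 on the log2 scale. The first 2 rest on few recovered reads. AL391152.1 had 11 to 37 in degron line 1 and 1 to 5 in degron line 2, and LINC02458 had 16 to 144 and 0 to 9. HNMT, which inactivates histamine by methylation, held 0.236 and 0.334 FPKM on day 0 and 2.01 and 2.24 on day 4 in degron line 1, against 0.029 and 0.027 and then 0.031 and 0.176 in degron line 2, and 0.0733 to 1.07 in the lines without a degron. Its difference in change missed the threshold (1.18 ± 0.19, adjusted p = 0.058). DDR2, a collagen receptor kinase, reached 1.67 and 1.78 FPKM on day 4 in degron line 1 and 0.422 and 0.365 in degron line 2. These points share their days and lines, so the correlations are descriptions. Over the days 27.7% of all genes tested differed in level between the degron lines, and the members of the families of PDE11A and SLITRK6 are read against that share. Of the cyclic nucleotide phosphodiesterases 7 of 25 passed the filter. Besides PDE11A, PDE3B (-0.44 ± 0.063, adjusted p = 0.000269) and PDE8A (-0.22 ± 0.062, adjusted p = 0.019) were lower in degron line 1 over the days, and PDE6D was higher (0.31 ± 0.063, adjusted p = 0.003). PDE8A was named to complete the count after values were seen. Of 30 SLITRK, LRRTM and related adhesion genes 6 passed the filter, and besides SLITRK6, which was lower, LRFN1 (0.74 ± 0.12, adjusted p = 0.00068) and LRFN3 (0.45 ± 0.073, adjusted p = 0.000682) were higher in degron line 1.

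Most changes called by day 4 had the same direction in both lines. Tested line by line without the block, 3064 genes changed by day 4 in degron line 1 (20%) and 3814 in degron line 2 (24.9%). Both lines called 2450 genes with 1 direction, which is 80.0% of the calls of degron line 1 and 64.2% of those of degron line 2, and 0 genes were called in opposite directions. The estimate had the same sign in the other line for 3032 of the 3064 genes and for 3777 of the 3814. Across all 15348 genes, which are not independent, the day 4 changes of the lines had a Pearson correlation of 0.857, and those of day 1 had 0.681. The lines share no library, but their libraries of 1 number and day deviated together (correlations of 0.463 to 0.577). Among the 2450 genes the estimate was larger in degron line 2 for 669 of 817 that fell and 1011 of 1633 that rose. On day 1, 11 genes were called in degron line 1 (0.0717%), 4 higher (0.0261%) and 7 lower (0.0456%), and 77 in degron line 2 (0.502%), 35 higher (0.228%) and 42 lower (0.274%), with 9 shared. That more genes passed in degron line 2 does not show that they differ between lines, which the difference in change tests.

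**Figure D2:**
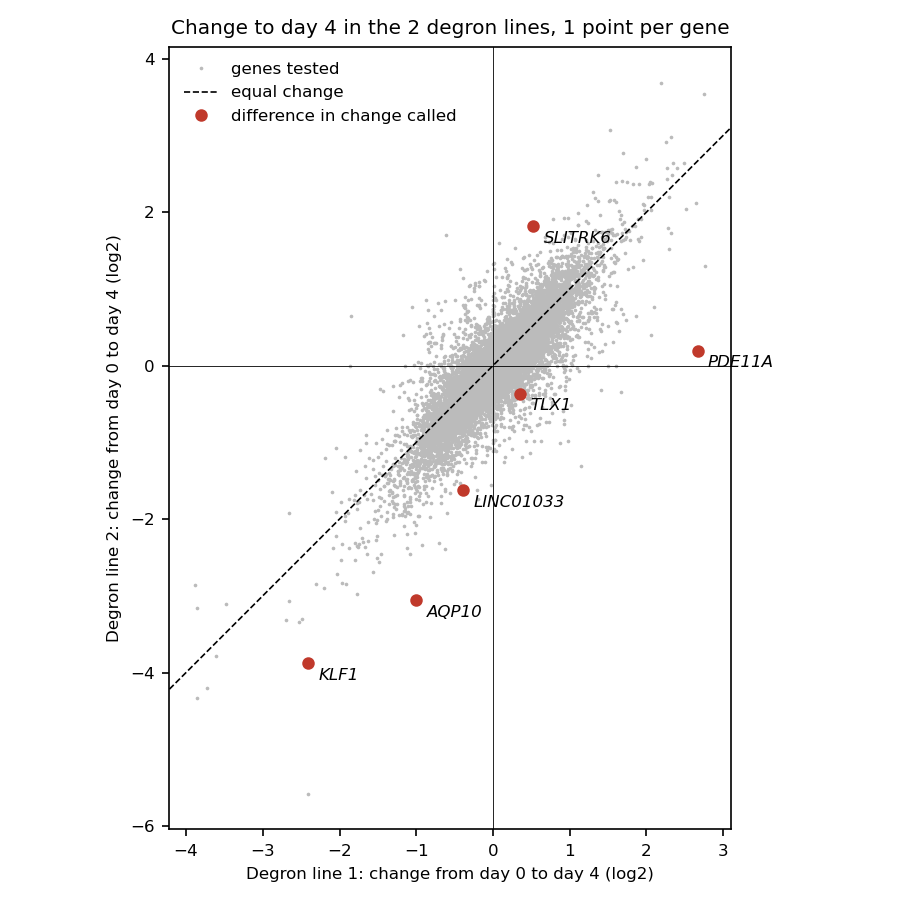
Change from day 0 to day 4 on the log2 scale in degron line 1 (x axis) and degron line 2 (y axis), 1 point per gene tested, with the 6 genes called for the difference in change named. Most points lie along the dashed line of equal change, with a correlation of 0.857, and PDE11A lies farthest to the right of it at 2.67 in degron line 1 and 0.19 in degron line 2.

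Gene groups were compared by how many members passed in each line. Cell cycle genes fell in both. Of 28 S phase genes, 22 fell in degron line 1, where 6.31% of all genes did, and 23 in degron line 2, where 9.84% did, with median changes of -0.82 and -1.13. Of 24 G2 and M phase genes, 13 fell in degron line 1 and 20 in degron line 2 (medians of -0.70 and -1.30). CCNB1, a mitotic cyclin, fell in both lines, to means of 66.0 FPKM in degron line 1 and 39.5 in degron line 2, against day 0 means of 114 and 108. Its difference in change was 0.64 (adjusted p = 0.114). BIRC5, survivin, ended at means of 26.9 FPKM in degron line 1 and 14.3 in degron line 2, and its difference in change was 0.62 (adjusted p = 0.158). The median difference in change was 0.60 over the G2 and M genes, 0.52 over 19 replication-dependent histone genes and 0.25 over the S phase genes, against 0.03 over all genes, with 0 members called. RNA with few polyA tails, such as that of these histones, is measured unevenly by polyA selection, and their near-identical copies make single values uncertain.

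Lysosomal genes rose in both lines. Of 25 tested, 12 rose in degron line 1, where 13.7% of all genes did, and 18 in degron line 2, where 15.0% did, with median changes of 0.74 and 1.03 and a median difference in change of -0.32. CTSC, cathepsin C, rose to 44.3 and 63.2 FPKM on day 4 in degron line 1 and 90.2 and 125 in degron line 2, against 13.6 and 20.5 and 17.5 and 21.6 on day 0. The day 4 libraries did not overlap between the lines, and the difference in change was -0.78 (adjusted p = 0.114). ALAS1, which opens heme synthesis outside the erythroid lineage, rose to 68.7 and 79.7 FPKM in degron line 1 and 145 and 228 in degron line 2, with a difference in change of -0.65 (adjusted p = 0.577). Of 9 monocyte and granulocyte genes that passed the filter, 6 rose in degron line 1 and 6 in degron line 2. ITGAX, an integrin of myeloid cells, rose to a mean of 4.91 FPKM in degron line 1 and 12.6 in degron line 2.

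The list of globins held 9 globin genes and AHSP, a chaperone of alpha globin. Of all genes tested, 6.31% fell and 13.7% rose in degron line 1, and 9.84% fell and 15.0% rose in degron line 2. Of the 10 in this list, 5 fell and 1 rose in degron line 1, and 6 fell and 1 rose in degron line 2 (medians of -1.82 and -2.37). HBZ, an embryonic alpha-like globin, fell to 6.07 and 13.5 FPKM on day 4 in degron line 1, against 192 and 92.6 on day 0, and to 2.65 and 5.02 in degron line 2, against 145 and 49.6. HBD, the delta globin, rose to a mean of 12.5 FPKM in degron line 1 and 35.2 in degron line 2. Of 12 erythroid transcription factors, 4 fell in degron line 1 and 6 in degron line 2. GATA1 fell to a mean of 85.8 FPKM in degron line 1 and 53.1 in degron line 2, with a difference in change of 0.51 (adjusted p = 0.286). Of 26 cholesterol synthesis genes, 8 fell in degron line 1 and 16 in degron line 2. INSIG1, a brake on that pathway, fell to 36.9 and 49.3 FPKM in degron line 1 and 39.2 and 42.2 in degron line 2, against day 0 levels of 121 and 125 and of 244 and 230.1.

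**Figure D3:**
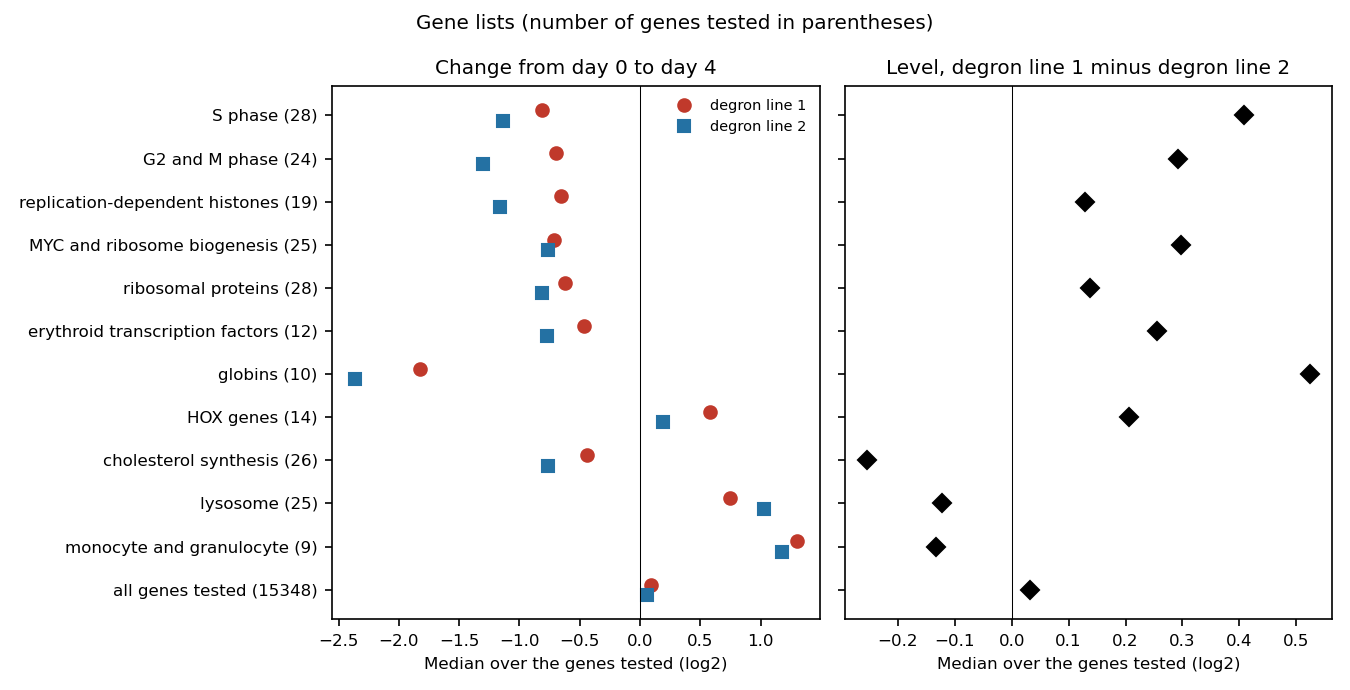
Median change from day 0 to day 4 in each degron line (left) and median level difference between the lines over the days (right), on the log2 scale, for 11 gene lists and all genes tested, with the number of genes tested in parentheses. Cell cycle lists have the larger falls in degron line 2, and their level was higher in degron line 1.

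The level comparison took the mean difference between the lines over days 0, 1 and 4. It therefore also takes in differences that arose after day 0. Over the 3 days 4253 of 15348 genes differed (27.7%), 2497 higher (16.3%) and 1756 lower (11.4%) in degron line 1. Of the 4253, 3716 (87.4%) had 1 sign in all 6 matched pairs. The LMO2 control and parental lines differed from each other at 4098 genes (26.7%) in the same contrast, so differences in this number also separated the lines without a degron. A total of 127 genes were called and at least 2-fold higher and 53 at least 2-fold lower in degron line 1. The split depended on scaling: trimmed-mean rescaling gave 1941 higher and 2079 lower, and quantile normalization 2167 and 2194. Without the block 893 were higher and 786 lower. On day 0 alone, before dTAGv1, 820 genes were called (5.34%), 381 higher (2.48%) and 439 lower (2.86%), and 810 of them had the same sign on day 1 and 790 on day 4, in libraries that share none with day 0. Of the 820, 544 were also called on day 4, which is 66.3% of the day 0 calls and 29.0% of the 1874 day 4 calls (12.2%). Those of day 4 were 1177 higher (7.67%) and 697 lower (4.54%), against 807 and 851 after trimmed-mean rescaling and 1002 and 989 after quantile normalization. Day 1 had 1031 calls (6.72%), 552 higher (3.60%) and 479 lower (3.12%), against 451 and 541 after trimmed-mean rescaling and 546 and 564 after quantile normalization. Against the lines without a degron on day 0, 3264 genes were called in degron line 1 (21.3%), 2054 higher (13.4%) and 1210 lower (7.88%), and 5273 in degron line 2 (34.4%), 2875 higher (18.7%) and 2398 lower (15.6%), in comparisons that share those 4 libraries.

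Among genes higher in degron line 1, the long non-coding RNA LINC02672 had the largest difference. It held 37.9 to 73.2 FPKM (median 63.1) in degron line 1 and 0.288 to 0.790 in degron line 2, and at most 0.65 in the lines without a degron. The difference was 5.27 ± 0.092 (adjusted p = 2.71e-12). Of 14 genes with a mean of at least 5 FPKM in degron line 1 and under 1 in degron line 2, 5 were also under 1 in both lines without a degron, LINC02672, PDE11A, LRCH2, WDR97 and LIPA. LIPA, the lysosomal acid lipase, held 3.85 to 7.66 FPKM in degron line 1, 0.065 to 0.160 in degron line 2 and 0.302 to 0.504 in the lines without a degron. WDR97, a WD repeat protein, held 5.499 to 11.7 FPKM in degron line 1 and 0.223 to 0.598 in degron line 2. LRCH2 held 4.16 to 11.5 FPKM against 0.126 to 0.360. Like PDE11A, LINC02672, LRCH2, WDR97 and LIPA reached 1 FPKM only in degron line 1. They passed the filter on low values only through the line where they were high.

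Others were expressed in the lines without a degron and low in degron line 2. BTNL9, a butyrophilin-like protein, held 13.8 to 29.5 FPKM in degron line 1 and 0.751 to 1.24 in degron line 2, while the parental line averaged 11.8 and the LMO2 control line 23.4. ABRACL averaged 23.0 ± 5.22 FPKM in degron line 1 and 2.89 ± 1.28 in degron line 2 (SD over 6 libraries), with 11.7 in the parental and 30.9 in the LMO2 control line. MAGEC2, a cancer-testis antigen of the X chromosome, averaged 25.5 ± 5.496 and 3.33 ± 1.26 FPKM, with 18.5 and 13.6 in the lines without a degron. The transcript AC079466.1 averaged 122 ± 59.2 and 8.30 ± 4.64 FPKM. In each of these 4 the 6 libraries of degron line 1 lay above the 6 of degron line 2. SMARCA1, an ISWI chromatin remodelling ATPase (17.8 ± 6.89 against 0.769 ± 0.333 FPKM), HCLS1, an actin regulator of blood cells (11.5 ± 1.57 against 0.254 ± 0.069), ARHGDIB, a regulator of small GTPases in blood cells (52.6 ± 8.27 against 6.86 ± 1.55), and GPRC5C, an orphan receptor (10.9 ± 4.25 against 0.637 ± 0.227), were higher in degron line 1 and lower in degron line 2 than in both lines without a degron, by their means. IL18R1 and IL18RAP, both chains of the interleukin 18 receptor and neighbours on chromosome 2, were chosen after their values were seen: they averaged 5.96 and 6.40 FPKM in degron line 1 and 0.477 and 0.576 in degron line 2.

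Among genes lower in degron line 1, OSBPL8 was high in degron line 2 alone. OSBPL8, a lipid transfer protein of the endoplasmic reticulum, held 7.07 to 15.4 FPKM in degron line 1 and 45.9 to 127 in degron line 2, with 3.88 to 11.5 in the lines without a degron. The difference was -2.71 ± 0.11 (adjusted p = 5.85e-09). AC063965.2 averaged 0.350 FPKM in degron line 1 and 5.77 in degron line 2, and at most 0.319 on average in the lines without a degron. It passed the filter on low values only through degron line 2, where it was high. MAGEC1, another cancer-testis antigen of the X chromosome, was low in degron line 1 instead. Degron line 1 averaged 3.72 ± 0.698 FPKM and degron line 2 20.8 ± 3.23, while the lines without a degron averaged 16.6 and 13.9.

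Some other genes lower in degron line 1 had, by their means, higher levels in both degron lines than in the lines without a degron. Among them were ST8SIA4, PDCD1, CYTH4 and SIGLEC6. ST8SIA4, a polysialyltransferase, averaged 1.25 ± 0.562 FPKM in degron line 1 and 6.41 ± 3.60 in degron line 2. PDCD1, the immune checkpoint receptor PD-1, averaged 1.48 ± 0.737 and 6.27 ± 2.23 FPKM, CYTH4, an exchange factor for ARF GTPases, 2.53 ± 1.31 and 9.03 ± 3.80, and SIGLEC6, a sialic acid-binding lectin, 3.46 ± 2.23 and 10.9 ± 7.54. The lines without a degron averaged at most 0.241, 0.970, 0.201 and 1.21 FPKM of these genes. TENM1, a teneurin (-1.39), SPIRE1, an actin nucleator (-1.28), ANXA3, an annexin (-1.24), and S100A16, a calcium-binding protein (-1.21), were also among the genes of largest difference. The calls for all 24 genes of largest level difference were kept, with 1 sign, in each of the alternative fits that tested them. These fits draw on the same libraries. For LINC02672, LRCH2, WDR97, LIPA and AC063965.2 the limit from the filter on low values, given above, also applies.

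**Figure D4:**
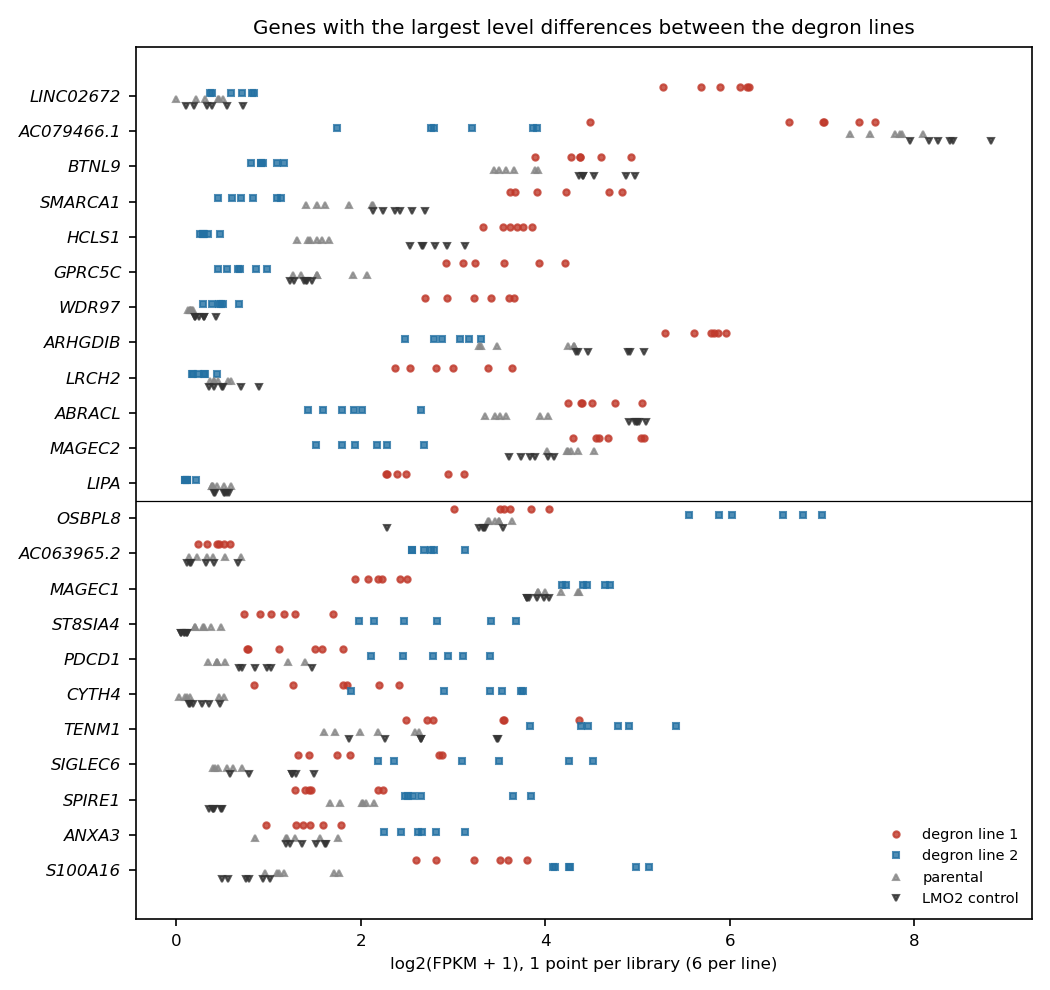
Level on the log2(FPKM + 1) scale in each of 24 libraries for the 12 genes with the largest positive (above the line) and 11 of those with the largest negative level difference between the degron lines. Within each gene degron line 1, degron line 2, parental and LMO2 control run from top to bottom, and OSBPL8 is high in degron line 2 alone.

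Gene lists were also compared by level, the mean over the days. Of all genes tested, 16.3% were higher and 11.4% lower in degron line 1. Of the S phase genes, 23 of 28 were higher in degron line 1 and 1 lower, with a median difference of 0.41 against 0.03 over all genes. MCM5, a subunit of the replicative helicase, held 46.4 to 47.9 FPKM on day 0 and 26.9 to 27.3 on day 4 in degron line 1, against 36.8 to 38.5 and 13.9 to 15.04 in degron line 2 (0.56 ± 0.045, adjusted p = 2.92e-06). Of G2 and M phase genes 17 of 24, of MYC and ribosome biogenesis genes 16 of 25, of mitochondrially encoded genes 11 of 13, of ribosomal protein genes 9 of 28 and of HOX genes 7 of 14 were higher in degron line 1, and 0 were lower in each of these lists. FBL, the methyltransferase of box C/D snoRNPs, differed by 0.49 ± 0.041 (adjusted p = 4.18e-06). HOXB9 held 78.0 to 109 FPKM in degron line 1 and 40.7 to 72.5 in degron line 2. Under trimmed-mean rescaling the counts higher were 23, 14, 15, 8, 4 and 7 in the order given, with 1 S phase gene and 1 ribosome biogenesis gene lower, and quantile normalization left 4 mitochondrially encoded genes.

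Erythroid transcription factors were higher in 7 of 12 cases, KLF1 and GATA1 (0.41 ± 0.055, adjusted p = 0.000164) among them, and 0 were lower, while trimmed-mean rescaling gave 6 higher and 1 lower. Globins went both ways, 4 higher (HBZ, HBA1, HBA2 and HBQ1) and 3 lower (HBG1, HBG2 and HBD), of which HBA1 and HBG2 were named after values were seen. Quantile normalization gave 3 of each. All of the 4 come from the alpha cluster on chromosome 16 and all of the 3 from the beta cluster on chromosome 11, and reads of near-identical copies may be split. Against the 11.4% of all genes that were lower, cholesterol synthesis genes were lower in degron line 1 in 12 of 26 cases and higher in 1, EBP, named after its value was seen. Lysosomal genes were lower in 10 of 25 cases, CTSD (-0.80 ± 0.067, adjusted p = 4.15e-06) among them, and LIPA was the 1 higher. FTL, the ferritin light chain, was lower in degron line 1 (-0.67 ± 0.079, adjusted p = 6.23e-05). SPRY2, an inhibitor of receptor tyrosine kinase signalling, was higher at 2.57 to 6.15 FPKM in degron line 1 against 0.441 to 1.01 in degron line 2 (1.64 ± 0.067, adjusted p = 6.62e-09). IFIT3, an interferon-induced gene, was higher (1.14 ± 0.076, adjusted p = 5.3e-07), and IRF7, a factor that drives interferon genes, was lower (-0.84 ± 0.059, adjusted p = 7.65e-07). Which of these depend on the share of cells in each phase or state and which on RNA per cell cannot be told apart in bulk RNA.

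Level differences were also laid out along the chromosomes, for genes with a mean of at least 5 FPKM and a RefSeq chromosome. This layout was chosen after values were seen and is given with no test. Chromosome 11 stood apart: 216 of its 434 genes were lower in degron line 1 (49.8%) and 28 higher, with a median of -0.19, while over all 7099 genes placed 14.1% were lower and 20.6% higher. Windows of 40 neighbouring genes showed where. The first 3 windows, BET1L to PHLDA2, NAP1L4 to ZBED5 and USP47 to TRIM44, had medians of -0.49, -0.47 and -0.39, and the last, of 74 genes between PANX1 and GLB1L2, had -0.39. The other 6 windows of that chromosome lay between -0.10 and -0.03, and 156 windows elsewhere between -0.15 and 0.19. The 4 low windows hold 194 genes, of which 148 were lower in degron line 1, against 787 of 6664 on other chromosomes.

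The pattern had 1 sign in all 6 matched pairs and, against the parental line, lay in degron line 1. The low windows were picked by their values in these same libraries, so their counts and signs describe the pattern and do not test it. The median over the 194 genes was -0.45 and -0.40 in the day 0 pairs, -0.43 and -0.42 in the day 1 pairs and -0.42 and -0.36 in the day 4 pairs. Against parental cells of the same day and number, degron line 1 had medians of -0.52 to -0.41 and degron line 2 of -0.14 to 0.0079. TALDO1, a pentose phosphate enzyme in the first window, held 148 and 123 FPKM on day 0, 141 and 121 on day 1 and 98.3 and 110.0 on day 4 in degron line 1. In degron line 2 it held 240 and 204, 223 and 214, and 154 and 176 FPKM, above degron line 1 in 6 of 6 pairs. COPB1, a coatomer subunit in the third window, held 19.6 to 24.9 FPKM in degron line 1 and 28.8 to 40.3 in degron line 2, and ARCN1, another coatomer subunit in the last window, 26.8 to 40.9 and 45.3 to 62.7. Both were chosen, like TALDO1, after their values were seen. LMO2 itself lies in the third window, and its level difference was not called, as given above. HBD, HBG1 and HBG2 lie in the second window, in the same stretch. With chromosome 11 genes set aside, the calls over the days were 2433 higher and 1449 lower. The LMO2 control line against the parental line had its own windows, with medians of 0.40 and -0.73 on chromosome 13 and 0.38 on chromosome 3. Copy number was not measured, and its part in these values was not tested.

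**Figure D5:**
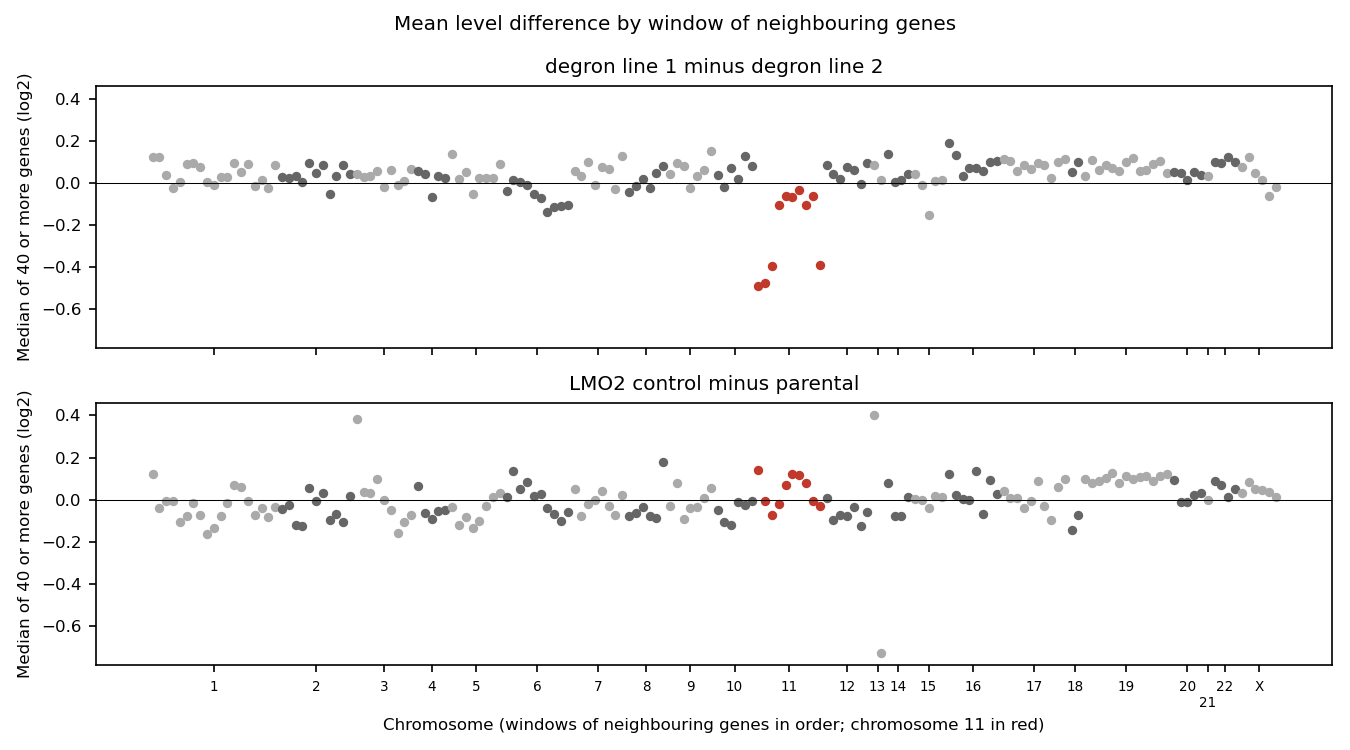
Median level difference on the log2 scale per window of 40 or more neighbouring genes, in chromosome order, for degron line 1 minus degron line 2 (top) and LMO2 control minus parental (bottom), with chromosome 11 in red. Top: 4 windows at both ends of chromosome 11 lie at -0.49 to -0.39, below the other 162. Bottom: the lowest window, at -0.73, is on chromosome 13.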

How the data were processed

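PolyA RNA was sequenced from K562 lines, and the authors deposited 1 table of FPKM, fragments scaled by gene length and library size, for 60642 genes. Per the submitters' processing notes, FastQC, STAR, featureCounts and hg19 were used, and versions are not given in the sources used here. Columns were matched to samples by library name, and 0 columns of per-sample values were left unused. For 99.9% of 36704 genes the FPKM gave whole reads, within 0.02 reads, which served only to describe depth.

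The test was limma 3.58.1 in R 4.3.3 on log2(FPKM + 1) over 24 libraries (both degron lines, the LMO2 control and parental lines), for the 15348 genes that reached 1 FPKM in 2 or more libraries. Since FPKM are not counts, no count model was used, and fold changes of low genes are understated by the pseudocount of 1. Each line and day was a group, a block stood for each day and bio rep (9 residual degrees of freedom), and the trend and robust settings were on. The bio rep numbers were taken as pairs because the comparison was defined as matched by day and bio rep. Deviations of same-numbered libraries correlated in every pair, at 0.23 to 0.66 within a day and 0.12 to 0.66 over all days. Changes within 1 line were fitted without the block (12 residual degrees of freedom). The adjusted p is Benjamini-Hochberg over all genes tested. The steps were tested on simulated data.

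Genes always named were PDE11A, SLITRK6, KLF1, LMO2, LDB1 and TAL1. Further names were the 12 largest level differences each way and the 8 largest differences in change each way, among called genes with 1 sign in all pairs and at least 5 FPKM in the higher group. Each list gave up to 3 called members by adjusted p, or its most abundant member, and the 5 genes most like PDE11A were added. All members and lists were chosen with earlier results of these data known. Chromosomes and gene order came from RefSeq (GRCh38.p14), which placed 12997 of the genes tested, while the files use hg19, so no coordinates were carried over. Alternatives were the block, libraries entered, pseudocount, filter, scaling, variance settings and leaving out each library. A few genes named by these rules are not reported here. The other 12 libraries of the series were not analysed here.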

Additional observations from a re-analysis of the deposited data

Results flagged for a closer look

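A test of the difference itself set the degron lines apart in their change from day 0. On day 1 it called 1 gene, AQP10, with a difference in change of 1.06 on the log2 scale (degron line 1 minus degron line 2). On day 4 it called 6 genes. PDE11A had a difference of 2.47, AQP10 of 2.05, KLF1 of 1.47, LINC01033 of 1.24 and TLX1 of 0.72. All had the higher change, by sign, in degron line 1. Of these, AQP10, KLF1 and LINC01033 fell in both lines and fell further in degron line 2. SLITRK6 had a difference of -1.30, with the higher change in degron line 2. In the 12 fits without 1 library the day 4 calls of SLITRK6 and TLX1 were each lost in 11. Those of KLF1 and LINC01033 were each lost in 7, as was the day 1 call of AQP10. The day 4 calls of PDE11A and AQP10 held in all 12. PDE11A and SLITRK6 passed the filter on low values only through the groups where they were high. Each difference had 1 sign in both matched pairs. These pairs are those the test used, and the rule that named AQP10, LINC01033 and TLX1 required 1 sign. The shared sign is therefore no separate support.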

How the results depend on the processing

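No called value of a named gene changed sign under the alternatives that tested it. Values that were not called did: the level difference of TAL1 ran from -0.05 to 0.21, and the differences in change of LMO2 and TAL1 took both signs on days 1 and 4. Without the replicate block the level calls were 1679 over the days, 275 on day 0, 310 on day 1 and 5.6e+02 on day 4 (350 higher and 212 lower), against 4253, 820, 1031 and 1874 with it, and the calls for the difference in change were 0 on day 1 and 2 on day 4, against 1 and 6. An additive block gave 0 calls for day 1. The 12 libraries alone gave 1328, 1692 and 2858 level calls on days 0, 1 and 4, and 0 for the change to day 1. A mean of at least 5 FPKM left 2702 level calls over the days and 422, 575 and 1202 on days 0, 1 and 4. For the change to day 1 a pseudocount of 0.1 and quantile normalization each gave 0 calls and no filter gave 6. For the change to day 4 no filter gave 51 and quantile normalization 12.

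Leaving out each library in turn gave 3134 to 3940 level calls over the days, 284 to 836 on day 0, 308 to 1043 on day 1 and 588 to 1728 on day 4. It gave 0 to 1 calls for the change to day 1 and 2 to 34 for that to day 4, the 34 without degron line 2 day 4 replicate 1. The cause of these shifts was not tested. Without chromosome 11 genes, an alternative chosen after seeing the data, 3882 level calls over the days and 668 on day 0 were left. Over the alternatives, the named genes called for level kept the call in 2340 cases and lost it in 101, the 6 genes called for the change to day 4 in 76 and 48, and AQP10 on day 1 in 9 and 12.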
